A study of Mus musculus with 12 samples.

Results

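IL-2 given for 4 h to starved CTLL-2 cells under cycloheximide was compared with cells sampled after 30 min of cycloheximide, on arrays scanned on a single day. CTLL-2 is a mouse cytotoxic T cell line that grows and survives only when the cytokine interleukin 2 (IL-2) is supplied. The comparison holds 6 of the series' 12 Affymetrix Mouse Genome 430 2.0 arrays, 3 of the 4 in each group. They were chosen as the arrays of the earliest scan day that the scanner's files record, replicates 1, 2 and 4 of both groups, and no expression value entered that choice. In both groups the cells had been maintained in 50 U/mL human recombinant IL-2, starved of it for 14 h and given cycloheximide at 20 µg/mL. The IL-2 cells received cycloheximide for 30 min and then 100 U/mL human recombinant IL-2 for 4 h, and the cells they are set against received cycloheximide for 30 min. Another group of 4 arrays, 4.5 h of cycloheximide without IL-2, was scanned on another day. Its values are given side by side for some genes, with no test. IL-2 and 4 h of added time in cycloheximide therefore cannot be told apart here, while scan day is shared. All groups share the starvation and the cycloheximide, the cells are 1 established line, and the labels do not say whether replicates were separate cultures.

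The IL-2 receptor signals through the kinases JAK1 and JAK3 to the transcription factor STAT5, and through the RAS-ERK and PI3K-AKT pathways. STAT5 switches on feedback inhibitors of the SOCS family, survival genes and cytokines, ERK activates early transcription factors and its own phosphatases, and AKT keeps FOXO factors out of the nucleus. Cycloheximide stops translation, so transcripts that change while it is present can respond to proteins already in the cell, and many short-lived messages accumulate in it.

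The values are signal intensities per probe set that the authors had scaled to a trimmed mean of 500 on every array. On the 6 arrays the median signal was 57.8 to 78.3, and 23.1% to 24.0% of probe sets exceeded 500. Summed over 12 T cell identity genes, the signal was 147821 to 158156 with IL-2 and 170221 to 249383 at 30 min. In both groups 11 of the 12 had a mean signal above 34.2, the level used as a filter. The exception was Cd2, a T cell adhesion receptor, at 3.1, 7.2 and 3.5 with IL-2, against 9.3, 9.0 and 5.2 at 30 min. Of the 11 tested 0 were called in limma, with 1 higher and 3 lower at an unadjusted p under 0.05. Cd8a, the CD8 alpha chain, was dim among those tested, at 270.5, 266 and 232 with IL-2, against 102, 208 and 121 at 30 min. It was called without 30 min replicate 2 (adjusted p = 0.0329). Muscle markers summed to 2732 to 3050 with IL-2 and 3324 to 3592 at 30 min, and to 187350 on the array labelled IL-2 replicate 3, which was scanned on the second day and is no member. That array had a T cell marker sum of 327. Myeloid markers summed to 6154 to 9154 with IL-2 and 9453 to 12432 at 30 min, mostly from Fcgr3, an Fc receptor, and the B cell, fibroblast and erythroid lists each summed to under 500 on all 6 arrays. Among the tested members of these 5 lists 0 were called in limma, with 2 myeloid and 1 B cell gene at an unadjusted p under 0.05, and their part in the results was not tested. The log2 ratio of the 3′ to the 5′ end of Actb was 0.25 ± 0.03 with IL-2 and 0.28 ± 0.03 at 30 min (SD, n = 3 each), and it was 0.56 ± 0.17 (SD, n = 4) at 4.5 h. At 4.5 h replicate 2 stood apart from the other 3 arrays for 13 of the genes given here.

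Some transcripts of cytokine feedback genes, ERK target genes, lymphotoxin and oncostatin M, nucleolar ribosome assembly factors and NF-kappaB genes stood higher with IL-2. Some transcripts linked to starvation, low oxygen, amino acid shortage and mitosis stood lower. In a limma fit of log2(signal + 16), 2508 of 27022 probe sets (9.28%) were called, meaning a difference of 2-fold or more and a Benjamini-Hochberg adjusted p below 0.05, 1515 higher (5.61%) and 993 lower (3.67%) with IL-2. Taking the brightest probe set for each gene, 1313 of 12690 genes (10.3%) were called, 812 higher (6.4%) and 501 lower (3.95%). In each of the 1313 the IL-2 arrays did not overlap the 30 min arrays, against 5297 genes (41.7%) with no overlap among all tested. Counts of 3 or more called genes in a list are given with each array whose omission moved them by over 1.5 times. The smaller counts of several lists changed without single arrays, among them the receptor, interferon, TNF family, p53 and pro-apoptotic lists. The count of probe sets fell to 1275 without IL-2 replicate 1, 1158 without IL-2 replicate 2, 1641 without IL-2 replicate 4 and 1445 without 30 min replicate 1. Within the scan day, replicate 4 of both groups was scanned before noon and replicates 1 and 2 after noon. This split by scan time was made here and is called the earlier and later session. That the 1313 genes had the same direction in each session follows from their arrays not overlapping, so it is no separate support. Centring on ribosomal protein genes adds the same amount to every difference, which put the median of all genes at 0.37 instead of -0.03 and the higher share of called probe sets at 89.9% instead of 60.4%. Centring on array medians gave a higher share of 72.7%. Averaged over their probe sets, Cdt1, Fyn, Kif11, Lcp2, Mnt, Odc1, Psma5, Slc38a2, Socs2 and Upf2 stayed under 2-fold and lost their calls, and with no filter on dim probe sets Bok, Ctla4, Hk2, Il24, Mcm5, Pim1, Rpl14 and Stat6 lost theirs. The arrays hold RNA of whole cultures, so fewer cells with a transcript and less of it per cell cannot be told apart.

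**Figure D1:**
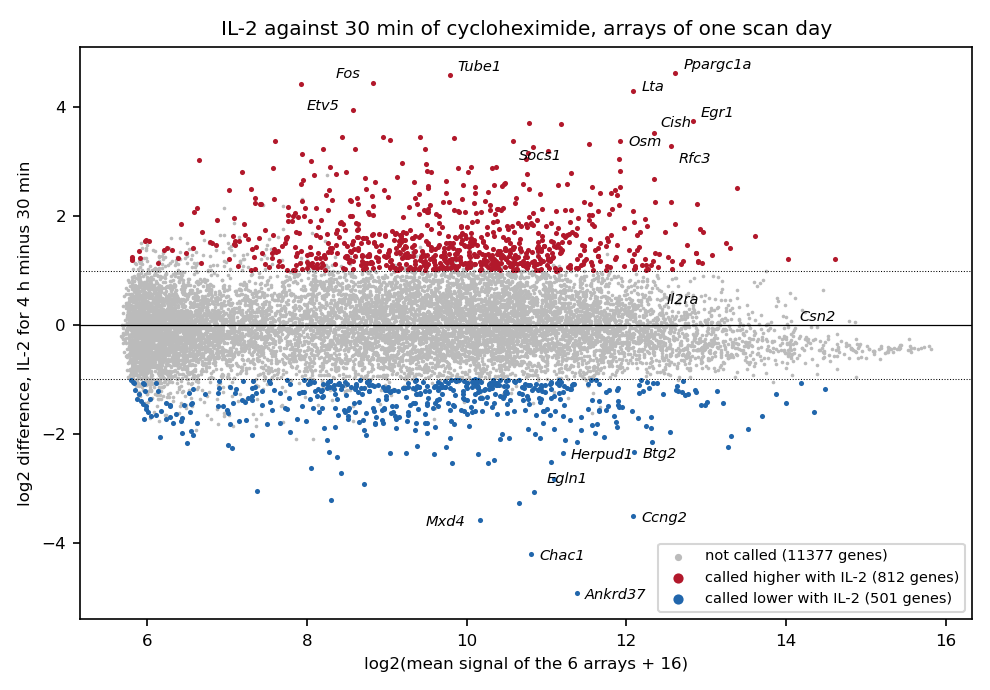
Log2 difference between IL-2 for 4 h and 30 min (vertical) against the log2 mean signal of the 6 arrays plus 16 (horizontal) for 12690 genes, with 812 genes called higher in red and 501 called lower in blue; dotted lines mark 2-fold. Of the labelled genes Ppargc1a, Tube1, Fos and Lta sit highest and Ankrd37 and Chac1 lowest, while Csn2, among the brightest transcripts, lies near 0.

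The promoters of 5 genes that stand for the main groups are printed here to show where a motif known for a factor of each group lies, in capitals; no test ties the motifs to the differences. They run from 250 bases before to 50 bases after 1 annotated transcript start, 5′ to 3′ along the gene's strand, and come from RefSeq on build GRCm38.p6. For Lta, Ankrd37 and Espl1 the annotated gene begins farther upstream than that start, and the Ankrd37 stretch lies wholly inside the gene. Cish (chr9:107296409-107296708, plus strand) and Lta (chr17:35205302-35205601, minus strand) are shown for TTCNNNGAA, the core of STAT sites. Chac1 (chr2:119350992-119351291, plus strand) is shown for TGATGCAA, the element bound by ATF4 with C/EBP partners. Ankrd37 (chr8:45999801-46000100, minus strand) is shown for ACGTG, the core of the hypoxia response element, and Espl1 (chr15:102296043-102296342, plus strand) for TTTGAA, the cell cycle genes homology region.
Cish: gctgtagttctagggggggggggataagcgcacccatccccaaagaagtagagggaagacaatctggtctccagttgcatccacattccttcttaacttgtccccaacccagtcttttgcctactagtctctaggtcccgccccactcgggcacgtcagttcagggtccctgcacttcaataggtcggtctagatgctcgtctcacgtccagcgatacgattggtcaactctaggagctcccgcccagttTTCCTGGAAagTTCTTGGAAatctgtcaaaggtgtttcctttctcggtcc
Lta: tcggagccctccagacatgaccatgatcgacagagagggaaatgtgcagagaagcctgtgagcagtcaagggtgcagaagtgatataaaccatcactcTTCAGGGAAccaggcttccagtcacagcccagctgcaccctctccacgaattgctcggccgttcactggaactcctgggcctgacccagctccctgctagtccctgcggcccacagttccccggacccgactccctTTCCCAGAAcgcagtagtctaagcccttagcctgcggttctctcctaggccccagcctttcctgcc
Chac1: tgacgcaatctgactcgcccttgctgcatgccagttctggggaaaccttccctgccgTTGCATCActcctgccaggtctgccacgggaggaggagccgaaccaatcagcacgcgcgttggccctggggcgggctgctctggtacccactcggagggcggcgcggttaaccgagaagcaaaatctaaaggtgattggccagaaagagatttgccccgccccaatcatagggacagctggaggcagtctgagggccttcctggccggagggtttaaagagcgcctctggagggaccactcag
Ankrd37: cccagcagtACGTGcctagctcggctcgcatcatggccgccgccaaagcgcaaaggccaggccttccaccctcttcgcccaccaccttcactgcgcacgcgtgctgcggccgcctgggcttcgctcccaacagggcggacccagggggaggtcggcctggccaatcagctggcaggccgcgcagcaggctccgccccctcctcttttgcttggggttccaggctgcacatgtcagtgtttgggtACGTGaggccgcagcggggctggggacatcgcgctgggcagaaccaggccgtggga
Espl1: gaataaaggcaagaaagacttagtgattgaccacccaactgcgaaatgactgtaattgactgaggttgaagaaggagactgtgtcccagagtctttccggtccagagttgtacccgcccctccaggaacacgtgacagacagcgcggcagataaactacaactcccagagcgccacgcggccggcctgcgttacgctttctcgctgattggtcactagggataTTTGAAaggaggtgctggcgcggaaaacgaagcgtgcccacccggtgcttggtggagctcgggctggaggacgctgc
Both strands were searched in all promoters of that length, and genes and motifs were chosen after the expression values were seen.

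Most cytokine feedback and effector genes on the STAT5 list rose. Of 25 genes on the STAT5 list, 14 were higher and 1 lower, with a median log2 difference of 1.42 against -0.03 over all genes. Cish encodes a SOCS family protein that binds the IL-2 receptor and damps STAT5 signalling. Its signal was 10029, 8965 and 9781 with IL-2, against 721, 862 and 878 at 30 min, a log2 difference of 3.53 ± 0.17 (SE, adjusted p = 8.86e-04). The group ranges are far apart, and the 4.5 h arrays, at 1891, 4959.6, 1551 and 1812, lay between them. Lta encodes lymphotoxin alpha, a secreted TNF family cytokine. Lta stood at 7953, 7671 and 9219.9 with IL-2, against 391, 409 and 419 at 30 min, a difference of 4.29 ± 0.16 (SE, adjusted p = 7.61e-04). At 4.5 h it was at 1468 to 1777. Osm, the IL-6 family cytokine oncostatin M, had signals of 7933, 7319 and 5955 with IL-2, against 733, 694 and 575 at 30 min, a difference of 3.37 ± 0.19 (SE, adjusted p = 0.00161). Socs1, an inhibitor of JAK kinases, measured 2839, 2960.0 and 2499.7 with IL-2, against 256, 305 and 202 at 30 min, a difference of 3.38 ± 0.20 (SE, adjusted p = 0.00161).

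Other feedback inhibitors and a survival kinase followed. Socs3 rose by 2.68 ± 0.18 (SE, adjusted p = 0.00186), read from a probe set that can cross-hybridize, with both other Socs3 probe sets called as well. Socs2 was bright in both groups, at 15596, 14109 and 14219 with IL-2, against 4941, 5566 and 5959 at 30 min, and rose by 1.42 ± 0.16 (SE, adjusted p = 0.00574), with 3 of its 6 probe sets called. Pim1, a survival kinase, differed by 1.07 ± 0.28 (SE, adjusted p = 0.049). Its call was lost without any 1 of the 6 arrays, with adjusted p-values of 0.0825 to 0.125. Bcl6, a transcriptional repressor, fell by 1.73 on the log2 scale with a signal of 186, 149 and 128 with IL-2, against 540.4, 521 and 568 at 30 min (adjusted p = 0.00496). The STAT motif occurred in 8 of the 18 STAT5 list promoters available and in 9.55% of all promoters. The called genes with a match were Cish, Socs3, Lta, Bcl6 and Igfals.

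Several classical STAT5 targets did not pass the test in this comparison. Csn2, the gene of the milk protein beta-casein, measured 18821, 16624 and 16796 with IL-2, against 17278, 18587 and 14221 at 30 min, a log2 difference of 0.07 ± 0.18 (SE, adjusted p = 0.833). The groups overlapped, and the 4.5 h arrays stood far below both, at 1320.2, 2560.1, 1281 and 1144. Csn3, kappa-casein, stood at 7342, 6736 and 9506 with IL-2, against 10042, 10630.5 and 11376 at 30 min, a difference of -0.46 ± 0.19 (SE, adjusted p = 0.164), with 1105, 976, 1158 and 1061 at 4.5 h. Il2ra, which encodes CD25, a chain of the receptor for IL-2, had 6296, 5941 and 5743 with IL-2, against 5442, 6157 and 3972 at 30 min, a difference of 0.23 ± 0.21 (SE, adjusted p = 0.502), and 1342, 1566, 1192 and 1381 at 4.5 h. Ccnd2, cyclin D2, differed by -0.61 ± 0.17 (SE, adjusted p = 0.0613). For Csn2, Csn3 and Il2ra all 6 arrays of the comparison stood above all 4 arrays at 4.5 h without IL-2, which were scanned on another day.

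Of 11 tested receptor chain, JAK and STAT genes, 2 rose and 1 fell, with a median of -0.38 (0.02 with ribosomal protein centring). Il4ra, the IL-4 receptor alpha chain, measured 4987, 5031 and 4559 with IL-2, against 1101, 1437 and 1033 at 30 min, a difference of 2.03 ± 0.19 (SE, adjusted p = 0.00357). Il21r, the IL-21 receptor, rose by 1.57 ± 0.19 (SE, adjusted p = 0.00632). The fall was Stat6, the transducer of IL-4, at -1.09 ± 0.28 (SE, adjusted p = 0.0466), with adjusted p = 0.0828, 0.115, 0.126, 0.132 and 0.117 without IL-2 replicate 1, IL-2 replicate 2, IL-2 replicate 4, 30 min replicate 1 and 30 min replicate 2. Stat5a and Stat5b, which encode the STAT5 proteins, differed by -0.97 ± 0.20 (SE, adjusted p = 0.0277) and -0.66 ± 0.16 (SE, adjusted p = 0.0382), under the 2-fold threshold, and Stat5a was called without 30 min replicate 4 (adjusted p = 0.0188).

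Several targets of the ERK pathway rose, among them its own brakes. Of 17 ERK feedback genes 7 rose and 10 were not called, with a median of 0.62 (0.99, 0.96 and 0.41 without IL-2 replicate 4, 30 min replicate 2 and 30 min replicate 4). Dusp4, a phosphatase that inactivates ERK in the nucleus, had signals of 4277, 3888 and 4684 with IL-2, against 276, 279 and 405 at 30 min, a difference of 3.70 ± 0.21 (SE, adjusted p = 0.00158). Spred1, which restrains RAS signalling, rose by 2.54 ± 0.18 (SE, adjusted p = 0.00186), and 6 of its 7 probe sets were called. The ETS factors Etv5 and Etv4 are read in many tissues as output of ERK. Etv5 measured 683, 784 and 615 with IL-2, against 20.4, 14.8 and 70.0 at 30 min, a difference of 3.95 ± 0.39 (SE, adjusted p = 0.00434). Etv4 had 412, 309 and 287 with IL-2, against 12.9, 36.1 and 8.7 at 30 min, where it was dim, and rose by 3.38 ± 0.32 (SE, adjusted p = 0.00368).

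Immediate early genes are transcribed within minutes of a signal, without new protein. Of 29 tested, 15 were higher and 1 lower, with a median of 1.00. Egr1, a zinc finger factor downstream of ERK, stood at 15746, 14158 and 10739 with IL-2, against 872, 1034 and 1062 at 30 min, a difference of 3.74 ± 0.21 (SE, adjusted p = 0.00158). Fos, an AP-1 subunit, measured 1005, 942 and 583 with IL-2, against 81.6, 11.1 and 5.1 at 30 min, a difference of 4.45 ± 0.58 (SE, adjusted p = 0.00749) (the 30 min arrays were dim and uneven). Hbegf, a ligand of the EGF receptor, rose by 3.26 ± 0.21 (SE, adjusted p = 0.00169), Gadd45b, a stress and survival signalling protein, by 2.51 ± 0.16 (SE, adjusted p = 0.00162), and Atf3, a stress-induced transcription factor, by 2.41 ± 0.16 (SE, adjusted p = 0.00178). Btg2, an antiproliferative gene that is itself induced early in many cells, went the other way: 1364, 1632 and 1269 with IL-2, against 8205, 8244 and 5447 at 30 min, a difference of -2.33 ± 0.23 (SE, adjusted p = 0.00416). An exact core of the serum response element was in 0 of 26 of these promoters and in 0.0777% of all promoters, which says only that it is not in this window.

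**Figure D2:**
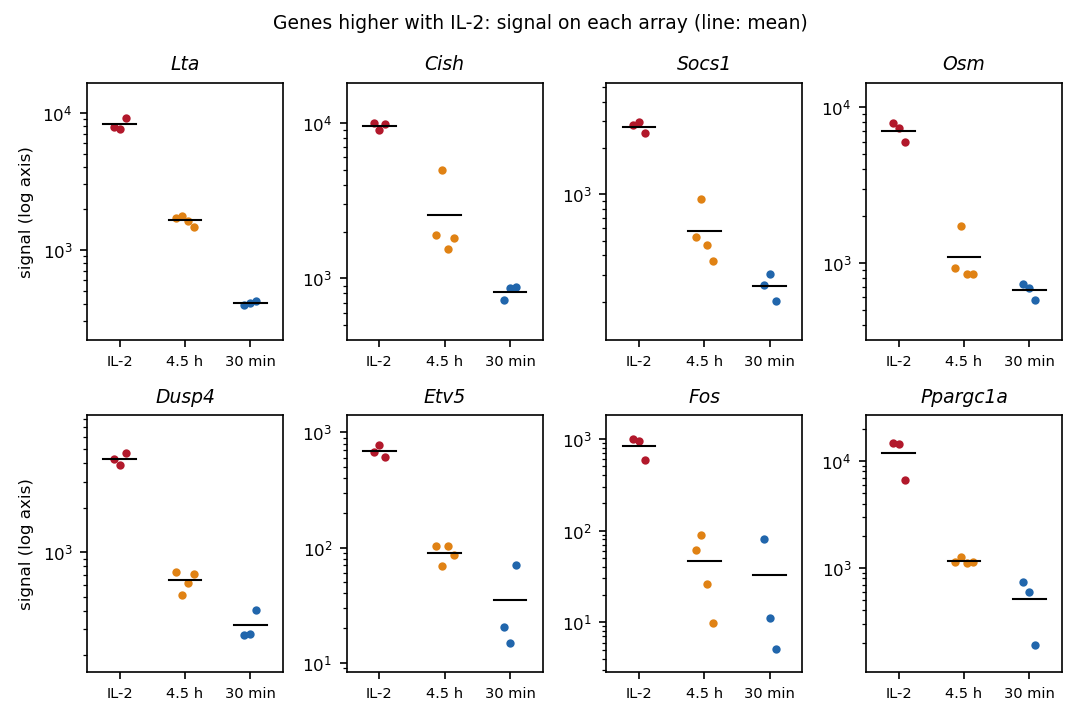
Signal on each array (log axis) for 8 genes higher with IL-2, with the 3 IL-2 arrays at the left, the 4 arrays at 4.5 h without IL-2 in the middle and the 3 arrays at 30 min at the right; bars mark means. In each of the 8 panels the IL-2 arrays lie above all 30 min arrays, and for Cish, Osm and Socs1 replicate 2 at 4.5 h lies above the other 4.5 h arrays.

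Some genes of the Myc network shifted in opposite directions. Of 12 genes of the network, 2 rose and 2 fell. Myc, the growth-promoting factor, measured 1916, 2113 and 1381 with IL-2, against 279, 197 and 253 at 30 min, a difference of 2.80 ± 0.23 (SE, adjusted p = 0.00262). Mycn, its relative, had 1581, 1798 and 1585 with IL-2, against 165, 234 and 65.2 at 30 min, a difference of 3.44 ± 0.41 (SE, adjusted p = 0.00591), with 2 of its 3 probe sets called and the lowest probe set at -0.98. Mxd4 and Mnt, repressors that compete with Myc for Max, were the 2 that fell. Mxd4 stood at 229, 212 and 76.7 with IL-2, against 2488, 2141 and 1634 at 30 min, a difference of -3.58 ± 0.40 (SE, adjusted p = 0.00549), with 2 of 4 probe sets called, and Mnt at 664, 574 and 399 with IL-2, against 2237, 1947 and 2448 at 30 min, a difference of -2.01 ± 0.23 (SE, adjusted p = 0.00575), with 1 of 2 called, the other probe set at 0.07, and -0.97 and not called as a mean over probe sets.

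Many genes for building ribosomes rose, while 0 genes of the ribosome's own proteins were called higher. Of 46 assembly factors 18 were higher and 28 not called, with a median of 0.89. The count was 11 without IL-2 replicate 1. Tsr1, which matures the small subunit, measured 4934, 4424 and 4875 with IL-2, against 1038, 1132 and 1327 at 30 min, a difference of 2.02 ± 0.17 (SE, adjusted p = 0.00288). Rrp1b, a nucleolar processing factor, rose by 2.22 ± 0.19 (SE, adjusted p = 0.00289), Nop56, a core protein of methylating small nucleolar particles, by 1.45 ± 0.15 (SE, adjusted p = 0.00485), and Noc3l, a nucleolar complex protein, by 1.36 ± 0.15 (SE, adjusted p = 0.00546). For Nop56 the IL-2 arrays, at 2786, 2887 and 3072, overlapped the 4.5 h arrays, at 2806 to 3626. Among 41 cytosolic ribosomal protein genes 1 was called lower, Rpl14 (-1.21 ± 0.26, adjusted p = 0.0279), and 40 were not, with a median of -0.46 (-0.04 after quantile normalization and -0.25 without 30 min replicate 2). The Rpl14 call was lost without each array except 30 min replicate 2, with adjusted p-values of 0.0518 to 0.0914. The E-box CACGTG bound by Myc was in 12 of 42 assembly factor promoters and in 8.09% of all promoters.

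Of 26 RNA polymerase subunit genes 3 rose and 1 fell (15.4% called, against 10.3% of all genes), with a median of 0.19. The rises numbered 1, 1 and 1 without IL-2 replicate 1, IL-2 replicate 2 and 30 min replicate 1. Polr1b, a core subunit of RNA polymerase I, rose by 1.29 ± 0.16 (SE, adjusted p = 0.00674), from signals of 313, 345 and 386 with IL-2, against 134, 128 and 135 at 30 min (the 4.5 h arrays stood at 362 to 518). Of 23 purine, pyrimidine and polyamine genes 6 rose and 1 fell, with a median of 0.53. The rises numbered 1, 1, 2, 1 and 3 without IL-2 replicate 1, IL-2 replicate 2, IL-2 replicate 4, 30 min replicate 1 and 30 min replicate 2. Srm, spermidine synthase, rose by 1.59 ± 0.20 (SE, adjusted p = 0.00691), and Odc1, ornithine decarboxylase, by 1.28 ± 0.21 (SE, adjusted p = 0.0134), a call lost at adjusted p = 0.052, 0.0523 and 0.0534 without IL-2 replicate 1, IL-2 replicate 2 and 30 min replicate 1. Mthfd2, a mitochondrial folate enzyme, fell by 1.24 on the log2 scale (adjusted p = 0.0111).

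Many NF-kappaB subunits and regulators rose. Of 19 tested, 9 were higher and 1 lower, with a median of 0.89. Bcl3, a nuclear partner of NF-kappaB, measured 4554, 4543 and 4128 with IL-2, against 739, 607 and 547 at 30 min, a difference of 2.78 ± 0.18 (SE, adjusted p = 0.00169), and the 4.5 h arrays, at 2596 to 3302, stood between. Rel, the c-Rel subunit, stood at 811, 717 and 606 with IL-2, against 64.7, 166 and 78.2 at 30 min, a difference of 2.70 ± 0.33 (SE, adjusted p = 0.00634). The inhibitor Nfkbie rose by 2.33 ± 0.28 (SE, adjusted p = 0.00622), whereas Nfkbid, a nuclear inhibitor family member, fell by 1.42 on the log2 scale (adjusted p = 0.00626). An exact kappaB sequence was in 2 of 17 promoters of the list, 0 of 8 of called genes, and in 0.174% of all promoters.

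Among secreted and surface molecules, some effector cytokines rose and cytotoxic granule genes were not called. Ifng, interferon gamma, measured 939, 1007 and 719.7 with IL-2, against 97.6, 92.3 and 29.1 at 30 min, a difference of 3.45 ± 0.38 (SE, adjusted p = 0.00546). Of 13 tested cytokine genes 3 rose, Ifng, Osm and Il24. Il24 was dim and its call was lost at adjusted p = 0.0837, 0.0783 and 0.0707 without IL-2 replicate 1, IL-2 replicate 2 and IL-2 replicate 4. Tnfrsf8, the TNF receptor family member CD30, had 919, 825 and 1082 with IL-2, against 69.6, 95.2 and 61.1 at 30 min, a difference of 3.40 ± 0.21 (SE, adjusted p = 0.00162). The TNF family list held 4 rises and 1 fall among 17 genes, and the rises numbered 2 without IL-2 replicate 2. Cysltr1, a receptor for cysteinyl leukotrienes, measured 2468, 1645 and 2528 with IL-2, against 238, 172 and 527 at 30 min, a difference of 2.89 ± 0.41 (SE, adjusted p = 0.0095), and was at 3.0 to 74.1 at 4.5 h. The chemokine receptor Ccr4 rose by 1.62 ± 0.24 (SE, adjusted p = 0.00994), and Cd69, an activation marker that retains T cells in tissue, by 1.44 ± 0.20 (SE, adjusted p = 0.00919).

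Of 21 tested cytotoxic effector genes 0 were called in limma, with 0 higher and 3 lower at an unadjusted p under 0.05, and a median of -0.39 (0.01 with ribosomal protein centring, -0.03 after quantile normalization and -0.16 without 30 min replicate 2). There was 1 lower call without 30 min replicate 4, 1 lower call as a mean over probe sets and 1 higher call with ribosomal protein centring. Prf1, the pore-forming protein perforin, stood at 28648, 26592 and 22233 with IL-2, against 35574, 51299 and 32318 at 30 min, a difference of -0.60 ± 0.23 (SE, adjusted p = 0.136). Its other probe set was at -1.63, and the mean of both was called (-1.11, adjusted p = 0.0274). Fasl, the death ligand, differed by -0.81 ± 0.19 (SE, adjusted p = 0.0368) and Gzmk, a granzyme, by -0.50 ± 0.22 (SE, adjusted p = 0.179). Of 20 receptor complex and costimulation genes 1 rose, Lcp2, and 2 fell. Among all genes 10.3% were called, so these few calls do not set the list apart. Lcp2, the adaptor SLP-76, rose by 1.20 ± 0.18 (SE, adjusted p = 0.0111), with adjusted p = 0.0517 and 0.0538 without IL-2 replicate 1 and IL-2 replicate 2. Fyn, a Src family kinase, fell by 1.09 on the log2 scale (adjusted p = 0.011). It was at -0.70 and not called with ribosomal protein centring. At 4.5 h Fyn stood at 1992 to 2825, overlapping the IL-2 arrays. Ctla4, an inhibitory receptor, measured 1176, 1214 and 453 with IL-2, against 4308, 3580.0 and 2346 at 30 min, a difference of -1.91 ± 0.43 (SE, adjusted p = 0.0335), and lost its call without each array except 30 min replicate 4 (adjusted p 0.0525 to 0.102). At 4.5 h Ctla4 stood at 589 to 1354, overlapping the IL-2 arrays.

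T cell fate regulators split. Of 27 tested, 3 rose and 4 fell. The pair Id3 and Id2, inhibitors of E proteins with opposed roles in memory and effector cells, moved in opposite directions. Id3 measured 665, 669 and 714 with IL-2, against 72.1, 33.0 and 77.2 at 30 min, a difference of 3.24 ± 0.27 (SE, adjusted p = 0.00288). Id2 measured 5664, 5994 and 7345 with IL-2, against 17444, 19761 and 23439 at 30 min, a difference of -1.67 ± 0.20 (SE, adjusted p = 0.00591), and was lower still at 4.5 h, at 1923, 3981, 1717 and 1649. Batf3, an AP-1 family factor, rose by 2.57 ± 0.25 (SE, adjusted p = 0.00391). Among 30 interferon response genes 2 rose and 1 fell, 10.0% called against 10.3% of all genes. The rises were Igtp, an interferon-inducible GTPase, at 2.42 ± 0.29 (SE, adjusted p = 0.00626) and Irf9, the DNA-binding subunit of ISGF3, at 1.17 ± 0.17 (SE, adjusted p = 0.0102).

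The balance of the BCL2 family shifted in several members. Bcl2, the founding survival protein, had 6557, 8378 and 7761 with IL-2, against 1718, 1465 and 2924 at 30 min, a difference of 1.94 ± 0.29 (SE, adjusted p = 0.0102), with 5 of 5 probe sets called. Bcl2l1, which encodes BCL-XL, measured 3852, 2996 and 3096 with IL-2, against 1042, 952 and 699 at 30 min, a difference of 1.88 ± 0.22 (SE, adjusted p = 0.00575), with 3 of 3 called. Mcl1 (0.23 ± 0.16 (SE, adjusted p = 0.378)) and Bcl2l2 (0.24 ± 0.16 (SE, adjusted p = 0.364)) did not pass. On the other side Bmf, a BH3-only killer released from the cytoskeleton, stood at 214, 161 and 168 with IL-2, against 1180.2, 932 and 867 at 30 min, a difference of -2.36 ± 0.20 (SE, adjusted p = 0.00288). Pmaip1, the BH3-only protein NOXA, went up instead, at 8321, 7899 and 6191 with IL-2, against 2879, 2439 and 3725 at 30 min, a difference of 1.32 ± 0.23 (SE, adjusted p = 0.0154), with adjusted p = 0.0618, 0.0641 and 0.0573 without IL-2 replicate 1, IL-2 replicate 2 and 30 min replicate 1. Bbc3, which encodes PUMA, differed by -1.20 ± 0.37 (SE, adjusted p = 0.0768) and was not called, but it was called with a block for scan session (adjusted p = 0.0335) and under 6 other settings, including trend and robust eBayes. Of 9 pro-apoptotic genes 1 rose and 2 fell, Bmf and the dim Bok. The Bok call rested on single arrays (adjusted p = 0.0923, 0.0535, 0.0916, 0.073 and 0.0689 without IL-2 replicate 1, IL-2 replicate 2, IL-2 replicate 4, 30 min replicate 2 and 30 min replicate 4). At 4.5 h Bok stood at 14.7 to 50.2, overlapping the IL-2 arrays.

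**Figure D3:**
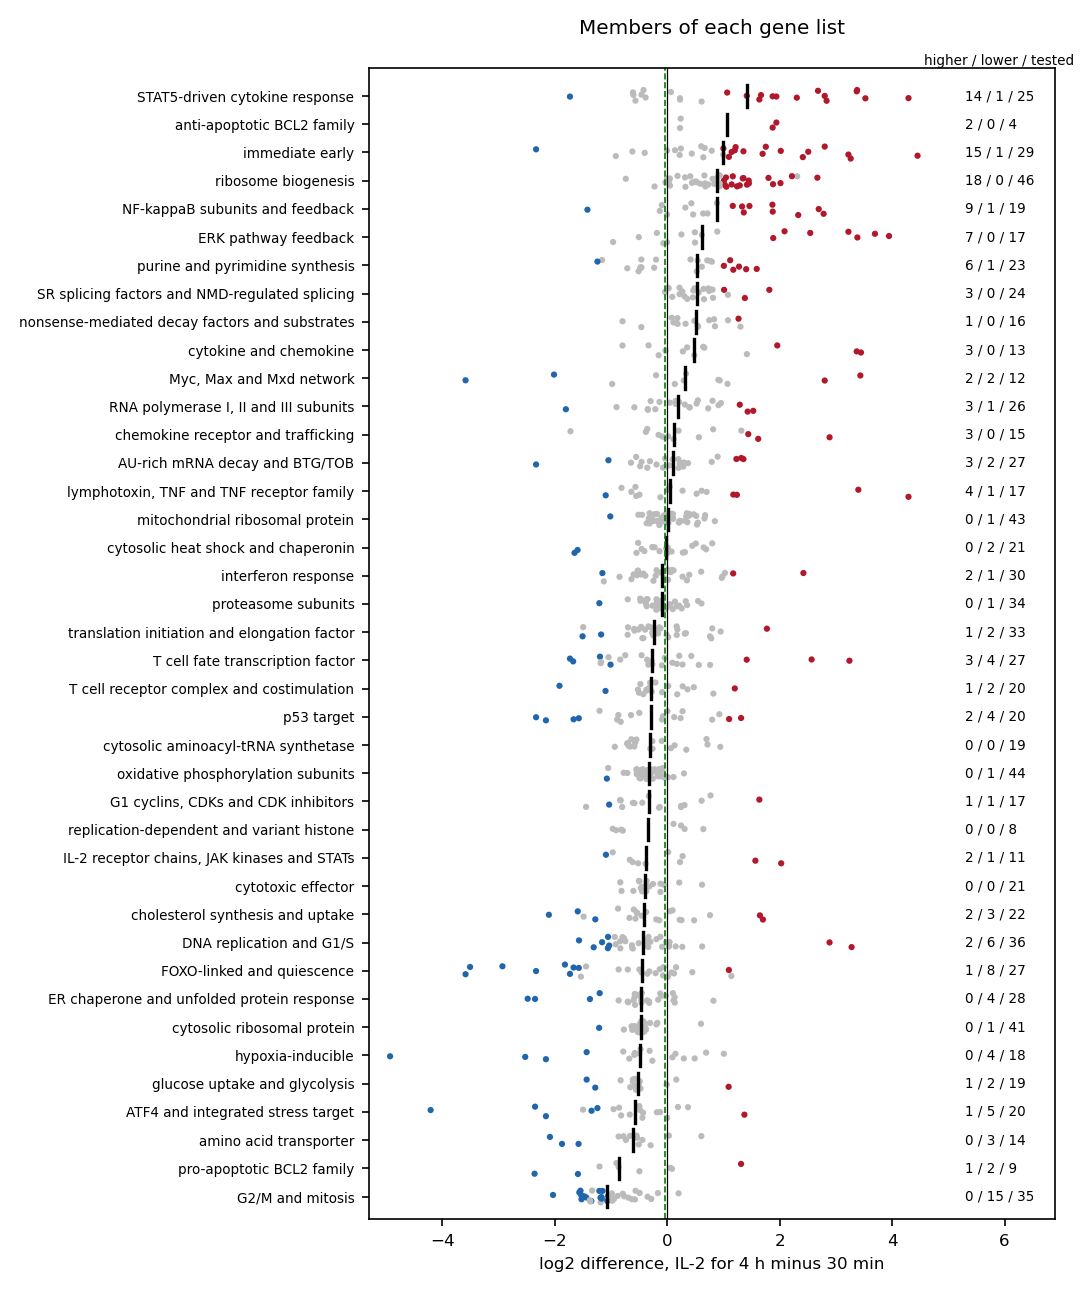
Log2 difference between IL-2 for 4 h and 30 min for the tested members of 40 gene lists, ordered by their median (black tick), with genes called higher in red, called lower in blue and not called in grey; the dashed line is the median of all genes, and the columns at the right give the numbers higher, lower and tested. STAT5-driven genes stand at the top with a median of 1.42 and mitosis genes at the bottom with -1.06.

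The deepest fall was in a gene of the low-oxygen programme. Ankrd37, an ankyrin repeat protein induced by the factor HIF-1, measured 173, 126 and 163 with IL-2, against 5065, 4499 and 5849 at 30 min, a difference of -4.92 ± 0.20 (SE, adjusted p = 7.61e-04). It stood at 347, 499.5, 452 and 466 at 4.5 h, above the IL-2 arrays and well below the 30 min arrays. Egln1, the prolyl hydroxylase PHD2 that marks HIF for destruction, had 727, 558 and 563 with IL-2, against 3428, 4107 and 3281 at 30 min, a difference of -2.52 ± 0.19 (SE, adjusted p = 0.00216). Slc2a1, the glucose transporter GLUT1, measured 5461, 5454 and 4447 with IL-2, against 14309, 15075 and 12085 at 30 min, a difference of -1.43 ± 0.18 (SE, adjusted p = 0.00691), and 2061, 2801, 2162 and 2828 at 4.5 h. Ddit4, an inhibitor of mTORC1, fell by 2.15 on the log2 scale (adjusted p = 0.0128), with adjusted p = 0.0517 and 0.0538 without IL-2 replicate 1 and IL-2 replicate 2. At 4.5 h Ddit4 stood at 1984 to 3618, overlapping the IL-2 arrays. Ankrd37, Egln1, Slc2a1 and Ddit4 are the 4 called among 18 hypoxia-inducible genes, whose median was -0.48 (-0.08 with ribosomal protein centring). ACGTG was in 14 of 18 promoters of the list, including all 4 called genes, and in 21.8% of all promoters.

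Several targets of the integrated stress response, which the factor ATF4 runs when amino acids are short or the endoplasmic reticulum is strained, fell. Chac1, which degrades glutathione, had 195, 179 and 133 with IL-2, against 3412, 3779.6 and 2927 at 30 min, a difference of -4.20 ± 0.21 (SE, adjusted p = 8.86e-04), and 177, 831, 203 and 233 at 4.5 h. Of 20 ATF4 targets 5 were lower and 1 higher, with a median of -0.58. The falls numbered 3 and 3 without IL-2 replicate 1 and IL-2 replicate 2. With ribosomal protein centring 3 fell, and the median was -0.18. Herpud1, a membrane protein of the degradation pathway at the endoplasmic reticulum, measured 746, 702 and 831 with IL-2, against 4062, 3636 and 4080.0 at 30 min, a difference of -2.35 ± 0.16 (SE, adjusted p = 0.00186). Dnajb9, a chaperone of the same compartment, stood at 384, 287 and 421 with IL-2, against 1892, 1468 and 3218 at 30 min, a difference of -2.48 ± 0.32 (SE, adjusted p = 0.00731). At 4.5 h Dnajb9 stood at 346.5, 679, 360 and 295, overlapping the IL-2 arrays. Of 28 unfolded protein response genes 4 fell (14.3% called, against 10.3% of all genes). These falls numbered 2 and 2 without IL-2 replicate 2 and 30 min replicate 1. The median of the list was -0.46. With ribosomal protein centring it was -0.06, with 2 falls and 1 rise. Among 14 amino acid transporters 3 fell. Slc7a1, which imports arginine and lysine, measured 708, 745 and 698 with IL-2, against 2972, 2545 and 3893 at 30 min, a difference of -2.08 ± 0.20 (SE, adjusted p = 0.0041), while Slc1a4 fell by 1.87 and Slc38a2 fell by 1.57 on the log2 scale. TGATGCAA was in 5 of 23 ATF4 list promoters and in 1.03% of all promoters. The ER stress response element, CCAAT and CCACG with 9 bases between them, was in 9 of 24 unfolded protein response promoters and in 0.137% of all promoters.

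Several genes of quiescence that FOXO factors maintain fell. Of 27 FOXO-linked genes 8 fell and 1 rose, with a median of -0.45 (-0.06 with ribosomal protein centring, where 7 fell). Ccng2, cyclin G2, which is high in cells leaving the cycle, measured 673, 638 and 741 with IL-2, against 7738, 7156 and 8923 at 30 min, a difference of -3.50 ± 0.17 (SE, adjusted p = 8.86e-04). Its 4.5 h arrays stood at 1563, 1695, 1386 and 1523, between the groups. Fbxo32, a ubiquitin ligase known from wasting muscle, had 94.7, 94.2 and 42.3 with IL-2, against 872, 980.1 and 338 at 30 min, a difference of -2.93 ± 0.46 (SE, adjusted p = 0.0123). At 4.5 h Fbxo32 stood at 73.1, 31.2, 10.4 and 71.1, overlapping the IL-2 arrays. The forkhead sequence GTAAACA was in 5 of 26 promoters of the list and in 4.05% of all promoters. Of 20 p53 targets 2 rose and 4 fell, with a median of -0.29 (0.11 with ribosomal protein centring, and -0.16, -0.50, -0.46 and -0.63 without IL-2 replicate 4, 30 min replicate 1, 30 min replicate 2 and 30 min replicate 4), and the falls numbered 2 and 1 without IL-2 replicate 1 and IL-2 replicate 2. Cdkn1a, the cell cycle inhibitor p21, differed by -0.82 ± 0.19 (SE, adjusted p = 0.0357) and was not called. The lists share members, so their falls are not separate observations. Btg2 is counted among immediate early genes, FOXO-linked genes and p53 targets, and Ddit4 among p53 targets, ATF4 targets and hypoxia-inducible genes. Herpud1 is on the ATF4 and unfolded protein response lists, and Bcl6 on the STAT5, FOXO and T cell fate lists. Mxd4 is on the Myc network and FOXO lists, and Slc2a1 on the hypoxia and glycolysis lists.

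**Figure D4:**
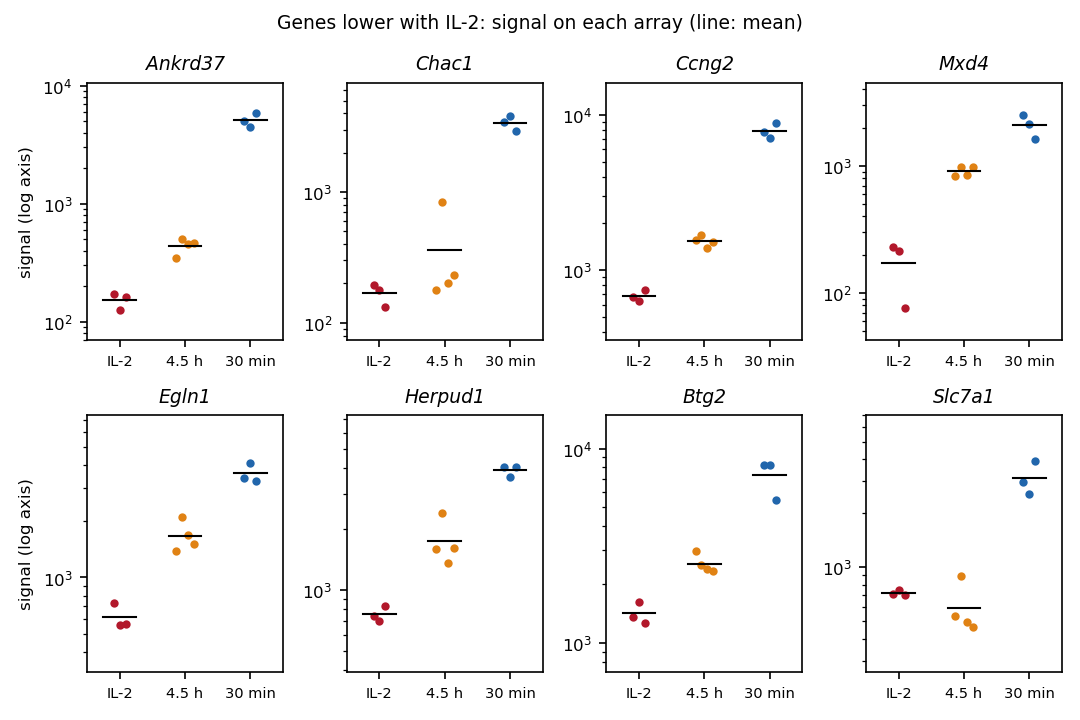
Signal on each array (log axis) for 8 genes lower with IL-2, with the 3 IL-2 arrays at the left, the 4 arrays at 4.5 h without IL-2 in the middle and the 3 arrays at 30 min at the right; bars mark means. In each of the 8 panels the IL-2 arrays lie below all 30 min arrays, and the 4.5 h arrays also lie below the 30 min arrays.

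Many transcripts of mitosis fell. Of 35 mitosis genes 15 fell and 20 were not called, with a median of -1.06. The falls numbered 7, 5, 9, 3 and 9 without IL-2 replicate 1, IL-2 replicate 2, IL-2 replicate 4, 30 min replicate 1 and 30 min replicate 2, and 5 with ribosomal protein centring. Espl1, the protease separase that splits sister chromatids, measured 59.9, 44.7 and 36.0 with IL-2, against 247, 266 and 203 at 30 min, a difference of -2.03 ± 0.21 (SE, adjusted p = 0.0047). Nuf2, a kinetochore protein, had 99.3, 96.3 and 85.9 with IL-2, against 249, 359 and 309.9 at 30 min, a difference of -1.54 ± 0.19 (SE, adjusted p = 0.00646). Kif11, the spindle motor, fell by 1.35 with 1 of 3 probe sets called (-0.90 and not called as their mean), and Ckap2, a spindle protein, fell by 1.53 on the log2 scale. At 4.5 h Ckap2 stood at 90.9 to 324, overlapping the IL-2 arrays. Ccnf, cyclin F, was dim with IL-2, at 26.3, 16.8 and 12.2, against 319, 372 and 154 at 30 min, a difference of -3.05 ± 0.35 (SE, adjusted p = 0.00558). At 4.5 h Ccnf stood at 9.1, 29.5, 68.1 and 21.9, overlapping the IL-2 arrays. TTTGAA was in 20 of 29 mitosis promoters and in 20.2% of all promoters.

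DNA replication genes were mixed. Of 36 tested, 2 rose and 6 fell, with a median of -0.44. The falls numbered 2, 2 and 2 without IL-2 replicate 2, IL-2 replicate 4 and 30 min replicate 1. With ribosomal protein centring 2 rose and 1 fell, and the median was -0.04. Rfc3, a subunit of the clamp loader, measured 11576, 10331 and 10766 with IL-2, against 1073, 1047 and 1204 at 30 min, a difference of 3.28 ± 0.16 (SE, adjusted p = 8.86e-04), and Orc1, the largest origin recognition subunit, 318, 261 and 374 with IL-2, against 60.8, 10.8 and 27.2 at 30 min, a difference of 2.89 ± 0.39 (SE, adjusted p = 0.00795). Orc1 was dim at 30 min, so this value depends on the added 16, and its other probe set, at 0.59, was not called. Cdt1, which licenses origins, went the other way, at 417, 552 and 339 with IL-2, against 1426, 1324 and 1158 at 30 min, a difference of -1.57 ± 0.22 (SE, adjusted p = 0.00928). Tk1, thymidine kinase, had 152, 161 and 147 with IL-2, against 437, 356 and 419 at 30 min, a difference of -1.30 ± 0.16 (SE, adjusted p = 0.00684). Both were higher at 4.5 h without IL-2 than in either group, with 3069 to 3862 for Cdt1 and 818 to 1479.6 for Tk1. Mcm5, a helicase subunit, stood at 242, 281 and 190.1 with IL-2, against 651, 524 and 469 at 30 min and 3826, 2775, 4471 and 4288 at 4.5 h. Its difference of -1.16 ± 0.22 (SE, adjusted p = 0.0196) was lost as a call without any 1 array except 30 min replicate 4 (adjusted p 0.051 to 0.0679). Cdk6, a G1 kinase, rose by 1.64 ± 0.17 (SE, adjusted p = 0.00483). The E2F sequence TTTCGCGC was in 7 of 34 promoters of the list, Rfc3, Orc1 and Mcm5 among them, and in 0.374% of all promoters.

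**Figure D5:**
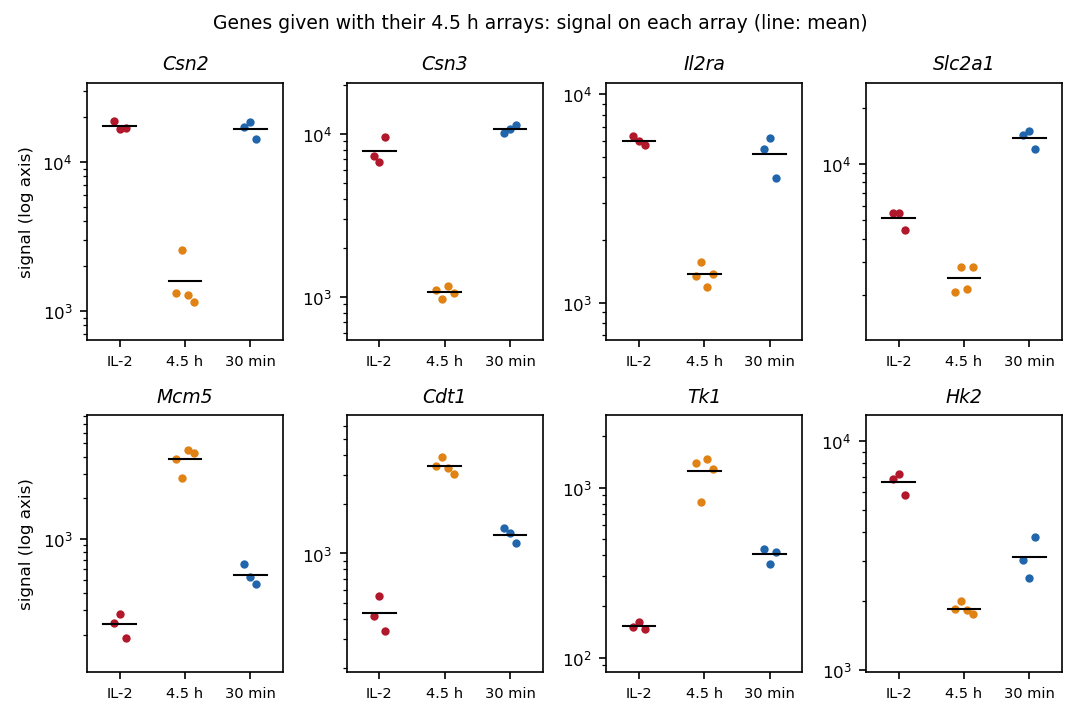
Signal on each array (log axis) for 8 genes, with the 3 IL-2 arrays at the left, the 4 arrays at 4.5 h without IL-2 in the middle and the 3 arrays at 30 min at the right; bars mark means. Csn2, Csn3 and Il2ra are high at both ends and low at 4.5 h, whereas Mcm5, Cdt1 and Tk1 are highest at 4.5 h.

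Called genes made up 15.8% of the glycolysis list and 22.7% of the cholesterol list, against 10.3% of all genes, and 2.27% of oxidative phosphorylation and 2.33% of mitochondrial ribosomal protein genes. Among 19 genes of glucose uptake and glycolysis 2 fell, Slc2a1 and Pgam1 (-1.28 ± 0.16 (SE, adjusted p = 0.00687)), and 1 rose. That gene, Hk2, hexokinase 2, measured 6824, 7216 and 5791 with IL-2, against 3019, 2518 and 3822 at 30 min, a difference of 1.09 ± 0.21 (SE, adjusted p = 0.0217), a call lost at adjusted p = 0.0763, 0.0834, 0.05, 0.0742 and 0.0545 without IL-2 replicate 1, IL-2 replicate 2, IL-2 replicate 4, 30 min replicate 1 and 30 min replicate 2. Cholesterol genes divided, 2 higher and 3 lower among 22, with the lower count at 1, 1 and 1 without IL-2 replicate 2, 30 min replicate 1 and 30 min replicate 2. Mvd, an enzyme of the mevalonate pathway, rose by 1.70 ± 0.16 (SE, adjusted p = 0.00375) and Stard4, a sterol transporter, by 1.65 ± 0.23 (SE, adjusted p = 0.00919). Sqle, squalene epoxidase, fell by 1.59 (adjusted p = 0.00846) and Srebf2, the master regulator of the pathway, fell by 2.10 on the log2 scale (adjusted p = 0.0171; adjusted p = 0.0545, 0.0611 and 0.054 without IL-2 replicate 2, 30 min replicate 1 and 30 min replicate 2). Oxidative phosphorylation subunits had a median of -0.32 (0.08 with ribosomal protein centring) with 1 of 44 called, and mitochondrial ribosomal proteins a median of 0.02 (-0.04 after quantile normalization and 0.14 without 30 min replicate 4) with 1 of 43 called, neither of them called without IL-2 replicate 1, IL-2 replicate 2 or 30 min replicate 1. The chaperone Hspa8 fell by 1.59 and the chaperone Dnajb1 fell by 1.65 on the log2 scale, adjusted p = 0.00745 for Hspa8 and adjusted p = 0.00453 for Dnajb1.

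Several of the largest differences lay in genes outside these groups. Ppargc1a encodes PGC-1 alpha, a coactivator that drives mitochondrial gene expression. It measured 14897, 14359.6 and 6713 with IL-2, against 746, 593 and 189.7 at 30 min, a difference of 4.63 ± 0.56 (SE, adjusted p = 0.00617), and 5 of 5 probe sets were called. Tube1, epsilon-tubulin of the centriole, had 1719.8, 1517 and 1801 with IL-2, against 72.0, 43.8 and 49.3 at 30 min, a difference of 4.59 ± 0.21 (SE, adjusted p = 8.86e-04). Enah, an actin filament elongation factor, had 527, 441 and 384 with IL-2, against 5.5, 8.1 and 3.0 at 30 min, where it was dim, so its difference of 4.43 ± 0.19 (SE, adjusted p = 8.86e-04) depends on the added 16. Tmc7, a membrane channel family member, rose by 3.46 ± 0.42 (SE, adjusted p = 0.00637) and Gpr155, a lysosomal membrane protein, by 3.46 ± 0.34 (SE, adjusted p = 0.00419).

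On the falling side, Jakmip1, a protein that binds Janus kinases and microtubules, measured 285, 302 and 263 with IL-2, against 3063, 3336 and 2320.5 at 30 min, a difference of -3.27 ± 0.20 (SE, adjusted p = 0.00161). Kif21b, a kinesin, fell by 3.07 and Plec, which encodes the cytoskeletal linker plectin, fell by 2.83 on the log2 scale, with adjusted p of 0.00558 and 0.00404. Hdac7, a histone deacetylase that shuttles between nucleus and cytoplasm in T cells, stood at 351, 426 and 265 with IL-2, against 1866, 2677 and 1749 at 30 min, a difference of -2.54 ± 0.26 (SE, adjusted p = 0.00446). The zinc finger protein Zbtb42 fell by 3.22 on the log2 scale and the zinc finger protein Zfp703 fell by 2.64. Tcp11l2 fell by 2.53 and Abhd8 fell by 2.71. Abhd8 had signals of 99.3, 101 and 33.5 with IL-2, against 492, 829.6 and 421 at 30 min, and its 4.5 h arrays, at 535 to 688, lay inside the 30 min range.

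Called genes made up 6.25% of the nonsense-mediated decay list and 12.5% of the splicing factor list, against 10.3% of all genes. Upf2, a nonsense-mediated decay factor, rose by 1.27 ± 0.17 (SE, adjusted p = 0.00749) and was the 1 gene called among 16 of its list, against 4 without 30 min replicate 4. The 24 splicing factor genes had a median of 0.53, with 3 called and 0, 0, 1, 1 and 0 without IL-2 replicate 1, IL-2 replicate 2, IL-2 replicate 4, 30 min replicate 1 and 30 min replicate 2. Zfp36l1, a protein that destabilizes AU-rich messages, rose by 1.23 ± 0.17 (SE, adjusted p = 0.009). Among 19 aminoacyl-tRNA synthetases 0 were called in limma, with 2 higher and 7 lower at an unadjusted p under 0.05, and a median of -0.30 (0.10 with ribosomal protein centring). Proteasome subunits had a median of -0.10 (0.30 with ribosomal protein centring, 0.03 with median centring and -0.17 without IL-2 replicate 4), and 1 of 34 was called, Psma5 at -1.20 ± 0.19 (SE, adjusted p = 0.0116) and adjusted p = 0.0533 without IL-2 replicate 1.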

How the data were processed

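RNA of CTLL-2 cells was measured on arrays, and the 6 arrays of the earliest scan day were used, 3 with IL-2 and 3 at 30 min. The authors' deposited table holds 1 linear signal intensity per probe set, from GCOS 1.3 software (per the submitters' processing notes), and scaled before deposit to a trimmed mean of 500, leaving out 2% at each end. How probes were summarised is not given in the sources used here. Scan records served to number scan days and to split each day at noon into an earlier and a later session.

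Of 45101 probe sets 64 controls were left out. Signals were analysed as log2(signal + 16), which understates differences of dim probe sets, and the 27022 with a mean at or above the 40th percentile (signal 34.2) were fitted by lmFit and eBayes of limma 3.58.1 under R 4.3.3, with Benjamini-Hochberg adjustment. Of the remaining 45037, 34945 had 1 symbol, 932 several and 9160 none. The brightest probe set stood for a gene, and of 5766 genes with several, 5 were called in opposite directions. The numbers of arrays limit the precision, and p-values measure the spread between arrays, which may be technical. On simulated data with 50 changed probe sets per size among 27022, the fit recovered 0% of the 1.5-fold changes and 4% at 2-fold. It recovered 34% at 3-fold and 40% at 4-fold, with 0 false calls. Far fewer probe sets changed there than the 2508 called in the data, which makes the adjustment stricter. The recovery therefore does not measure that of the fit to the data.

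The members and lists were chosen with earlier results of these data known. Named genes are the 15 strongest called rises and 15 strongest called falls without overlap between the groups' arrays, up to 4 members of each of 46 lists by p-value, and 16 fixed genes, 191 in all. Igfals, named beside a motif count, lies outside the rule and was chosen after its values were seen. The serum response and kappaB motifs are given by name. Alternatives were other scalings, pseudocounts, filters, eBayes settings, thresholds, a replicate block, added arrays, other probe set rules and leaving out each array. A block for scan session and the later session alone were chosen after seeing the data. Figures were drawn with matplotlib 3.10.9 (python 3.11.15).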

Additional observations from a re-analysis of the deposited data

Results flagged for a closer look

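Replicate 2 of the 4.5 h group lay apart from the other 3 arrays of that group for 13 of the 119 genes checked, by a gap test at the 95% level that flags about 1 in 20 groups by chance. The 4.5 h arrays enter the fits only with 11 and 12 arrays. 7 of these genes were higher on replicate 2. Bcl2 stood at 2873 there, against 2266 to 2308 on the other 3 arrays. Bcl3 stood at 3302 there, against 2596 to 2644 on the other 3 arrays. Cish stood at 4959.6 there, against 1551 to 1891 on the other 3 arrays. Fyn stood at 2825 there, against 1992 to 2059 on the other 3 arrays. Osm stood at 1727 there, against 848 to 926 on the other 3 arrays. Socs2 stood at 7789 there, against 6245 to 6415 on the other 3 arrays. Stat6 stood at 2525 there, against 1962 to 2036 on the other 3 arrays. 6 were lower on it. Bbc3 stood at 949.6 there, against 1709.6 to 1787 on the other 3 arrays. Ctla4 stood at 589 there, against 1267 to 1354 on the other 3 arrays. Nfkbid stood at 362 there, against 745 to 840.1 on the other 3 arrays. Nuf2 stood at 204 there, against 345 to 364 on the other 3 arrays. Pgam1 stood at 4326 there, against 5768 to 6067 on the other 3 arrays. Tsr1 stood at 2644 there, against 3113 to 3209.5 on the other 3 arrays.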

How the results depend on the processing

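The count of called probe sets, 2508 (1313 genes), lay between 1734 and 3377 under quantile normalization, both centrings, both pseudocounts, both filters, trend and robust eBayes, the scan session block, 7 and 11 arrays and without cross-hybridizing probe sets. It was 931 (495 genes) with all 12 arrays, which take in the array with muscle transcripts, 1282 (735 genes) in the later scan session alone, 867 (519 genes) at an adjusted p under 0.01 and 3947 (2122 genes) with no fold threshold. Averaging a gene's probe sets gave 1087 genes. Leaving out each array in turn gave 1158 to 2678 probe sets and 642 to 1401 genes. Replicate numbers were not taken to pair the arrays. Deviations of same-numbered arrays correlated at 0.092, 0.080 and 0.275, and IL-2 replicate 1 with 30 min replicate 2 at 0.093. Replicate 4 of either group correlated at -0.136 to -0.172 with the other numbers. Deviations from a group mean depend on each other, so these values do not settle whether arrays were paired. The replicate block gave 2481 (1300 genes). Of 119 genes given, 118 kept their direction and side of the thresholds after quantile normalization, 109 with ribosomal protein centring, 115 with the replicate block and 55 with 12 arrays. With 12 arrays 7 log2 differences changed sign, to -0.044 for Bcl2, -0.20 for Cd69, -2.35 for Csn2, -1.35 for Il2ra, -0.33 for Lcp2, -0.0070 for Mcl1 and -0.60 for Pmaip1. That of Csn2, not called, was also -0.019 in the later session and ran from -0.044 to 0.149 without single arrays, and that of Bcl2l2 was -0.33 as a mean over probe sets. The cause was not tested. Medians changed sign in 14 of 41 lists with ribosomal protein centring, 4 with quantile normalization and 3 with median centring.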
